A study of Mus musculus with 2 samples.

Results

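Windows around the 4 Hox clusters held 393 of the 90526 genomic probes on the arrays. These were the probes whose start, on mouse build mm8, lay at 51.9 to 52.4 Mb of chromosome 6 (the Hoxa window, 94 probes), 95.8 to 96.4 Mb of chromosome 11 (Hoxb, 123 probes), 102.4 to 103.1 Mb of chromosome 15 (Hoxc, 72 probes) or 74.2 to 74.9 Mb of chromosome 2 (Hoxd, 104 probes). Probes with starts at most 500 bp apart were joined into a region, with a cut at the edge of a window, which gave 76 Hox regions of 23059 on the arrays. Of these, 62 had at least 2 probes that passed the filter on dim probes and could be tested (13 in Hoxa, 20 in Hoxb, 14 in Hoxc and 15 in Hoxd), beside 18114 other autosomal regions. The array files carry no gene column, so a region is named here by its cluster and by its order along the window; "Hoxa region 6" is counted from the start of the Hoxa window and is unrelated to the gene Hoxa6. Whether a probe lies in a CpG island, exon or promoter was not analysed here. A Hox region is any region in these windows, and whether it belongs to a Hox gene or to a neighbouring gene was not analysed either.

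DNA came from hypothalami of female FVB/NJ mice at postnatal day 180. SL mice had been raised in small litters of 4 pups, a model of overnutrition in the suckling period, and C mice in litters of 9 pups. Each group gave 10 hypothalami, whose DNA was combined into 2 pools of 5, and SL was hybridised against C on 2 arrays. SL carried Cy5 on array 1 and Cy3 on array 2, so that the dyes were exchanged. A pool mixes all cell types of the hypothalamus, and a difference in their proportions cannot be told apart from a difference in methylation within a cell type.

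Hox genes encode homeobox transcription factors that set position along the head to tail axis of the embryo, and within a cluster their order on the chromosome matches the order in which they are used along that axis. The clusters are unusually dense in CpG islands and in the histone mark laid down by Polycomb proteins. Hox genes pattern the hindbrain and spinal cord and are largely silent in the forebrain, to which the hypothalamus belongs. Evx1 and Evx2 are homeobox genes beside the Hoxa and Hoxd clusters, and Hotair is a long noncoding RNA gene inside Hoxc.

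The assay reads the restriction site CCCGGG. SmaI cuts it to blunt ends only where its CpG is unmethylated, XmaI then opens the sites that remain and leaves ends that take an adaptor, and PCR amplifies fragments with an adaptor at both ends. A high signal therefore stands for many fragments whose flanking sites were both methylated, and the signal is not a methylation percentage. To show such sites in their surroundings, the 250 bases upstream of 4 gene starts are given 5′ to 3′ from RefSeq, build GRCm38.p6, with CCCGGG in capitals: Hoxa6 (chr6:52208673-52208922, minus strand), which acts in the trunk; Hoxb1 (chr11:96365508-96365757, plus strand), which patterns the hindbrain; and Hoxd4 (chr2:74721728-74721977, plus strand) and Hoxd10 (chr2:74691641-74691890, plus strand), which act at more anterior and more posterior levels. Hoxa6 and Hoxd10 were chosen as examples with many CG pairs for these genes, and Hoxb1 and Hoxd4 as examples with few.
Hoxa6: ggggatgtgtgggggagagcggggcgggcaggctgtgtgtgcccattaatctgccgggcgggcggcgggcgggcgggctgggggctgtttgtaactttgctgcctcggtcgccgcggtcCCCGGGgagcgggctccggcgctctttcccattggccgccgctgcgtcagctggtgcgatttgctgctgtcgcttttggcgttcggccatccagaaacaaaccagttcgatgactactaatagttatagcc
Hoxb1: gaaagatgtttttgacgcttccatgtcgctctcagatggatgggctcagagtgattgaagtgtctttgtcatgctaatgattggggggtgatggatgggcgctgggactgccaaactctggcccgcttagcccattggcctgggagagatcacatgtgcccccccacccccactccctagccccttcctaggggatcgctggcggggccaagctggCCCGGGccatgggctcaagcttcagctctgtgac
Hoxd4: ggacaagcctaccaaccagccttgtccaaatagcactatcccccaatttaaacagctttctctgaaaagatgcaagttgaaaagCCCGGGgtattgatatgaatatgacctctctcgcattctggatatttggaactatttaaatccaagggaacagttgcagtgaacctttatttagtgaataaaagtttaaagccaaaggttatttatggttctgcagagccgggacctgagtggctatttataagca
Hoxd10: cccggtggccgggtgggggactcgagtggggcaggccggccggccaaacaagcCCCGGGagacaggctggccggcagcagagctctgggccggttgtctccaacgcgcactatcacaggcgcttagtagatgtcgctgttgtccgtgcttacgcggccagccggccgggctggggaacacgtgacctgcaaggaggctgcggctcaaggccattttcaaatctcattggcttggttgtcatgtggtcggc
The Hoxa6 stretch holds 24 CG pairs and is 65.2% G or C, the Hoxd10 stretch holds 20 at 65.6%, the Hoxb1 stretch 7 at 59.2%, and the Hoxd4 stretch only 3 at 40.4%. Of 42 genes of the clusters listed for this purpose, Evx1, Evx2 and Hotair among them, the promoter table matched 24, with 26 promoters. CCCGGG, which reads the same on both strands, occurred in 8 of these 26 stretches of 250 bases (30.8%), against 3673 of 32851 (11.2%) in the whole table. The 8 belong to Hoxa2, Hoxa6, Hoxa9, Hoxb1, Hoxd4, Hoxd9, Hoxd10 and a promoter of Hoxd11. No listed stretch held a second site, which was uncommon in the table too (611 of 32851 stretches). The median number of CG pairs was 12.5 in the listed stretches and 6 in the table, and the median G or C content was 56.8% and 52.4%. These sequences and the array positions are on different builds and were not converted, so no region below is paired with a gene.

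Both arrays measured the Hox probes clearly. The share of Hox probes well above background lay between 92.6% and 95.15% in the 4 channels, against 94.64% to 95.95% of other autosomal probes, and no Hox probe was saturated. The arrays lay on 1 slide, so no batch could be compared. Signals were about as strong in SL as in C within each array and lower on array 2 than on array 1 for all groups of probes, so levels are compared within an array. The precision is limited by there being 2 arrays, and the sources do not tie the pools to the arrays. The spread between arrays may therefore be technical.

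Hox regions gave much less signal than the rest of the autosomes, in C and in SL alike. The median C signal of the 368 Hox probes that passed the filter was 525 on array 1 and 310.7 on array 2, while other autosomal probes had medians of 2088 and 1281. In SL the Hox medians were 494.3 and 307.1, and the other medians were 1932 and 1247. On the log2 scale the Hox probes lay below the others by a mean difference of -2.02 ± 0.037 (SD, n = 2 arrays) in C, which is 4.05-fold, and of -2.00 ± 0.039 in SL, which is 3.99-fold. The SD is the repeatability of the same probes on the 2 arrays, not the variation among probes, so it gives no test of this gap. Hybridisation signal also depends on a probe's sequence and length and on the size of its fragment, whose part was not tested apart from length. Compared only among probes of equal length, the difference in C was -1.70.

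All 4 clusters lay below the other autosomal probes, by different amounts. The Hoxd probes were the dimmest, with a median C signal of 383.7 on array 1 and 214.8 on array 2 and a log2 difference of -2.51 ± 0.092 (SD, n = 2). Hoxc followed with 539.8 and 311.9 (-2.00 ± 0.062), then Hoxb with 600.1 and 321.2 (-1.90 ± 0.14) and Hoxa with 685 and 386 (-1.67 ± 0.087). By these probe medians, Hoxd was lowest and Hoxa highest on both arrays. Regions within a cluster differed far more than this, with an SD of log2 C signal on array 1 of 1.29 in Hoxd, 1.66 in Hoxc, 1.86 in Hoxa and 2.39 in Hoxb, so the order of the clusters is a description. In SL the probe medians had the same order. The log2 differences were -2.41 ± 0.15 for Hoxd, -2.12 ± 0.0085 for Hoxc, -2.01 ± 0.012 for Hoxb and -1.71 ± 0.16 for Hoxa. Set against regions of the same chromosome, every cluster was again lower. The median Hoxa region had a C signal of 605.7 and 411.9 on array 1 and array 2. The other 808 tested regions of chromosome 6 had 1541 and 926.4. The median Hoxd region had 361.6 and 179.4, against 2174 and 1351 for 1444 other regions of chromosome 2. Hoxb (725.8 and 411.9 against 2544 and 1589) and Hoxc (504.6 and 319.5 against 2527 and 1571) also lay below the rest of chromosomes 11 and 15. Among these region medians Hoxb, not Hoxa, was highest on array 1, and both had 411.9 on array 2.

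Region by region, 52 of the 62 tested Hox regions (83.9%) had a C signal below the median of other autosomal regions, where the share over all tested regions was 49.9%. The dimmest 20% of other autosomal regions took in 22 Hox regions (35.5%, against 19.8% of all tested regions), and the brightest 20% took in 4 (6.45%, against 19.9%). The dimmest 20% held 3 of 13 Hoxa, 7 of 20 Hoxb, 5 of 14 Hoxc and 7 of 15 Hoxd regions. The 4 bright regions were 1 of Hoxa and 3 of Hoxb. The same number of Hox regions fell into the dimmest 20%, 22, when each channel of each array was ranked by itself.

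**Figure D1:**
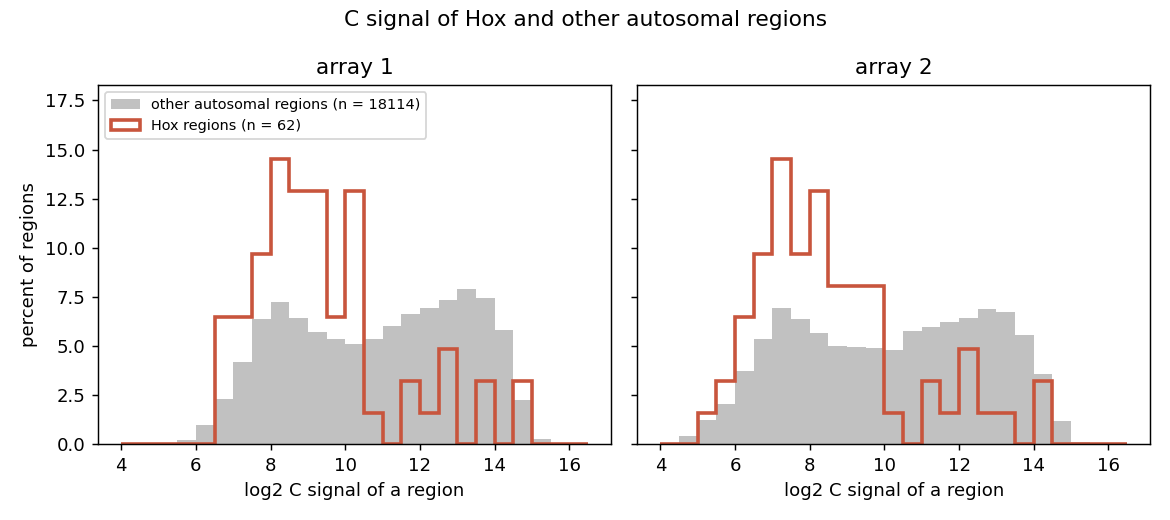
Percent of regions (y axis) by log2 C signal of the region (x axis, bins 0.5 wide) on array 1 (left) and array 2 (right), for 62 Hox regions (red line) and 18114 other autosomal regions (grey). The other regions spread over a low and a high hump, and most Hox regions sit in the low hump on both arrays.

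Larger regions are dimmer on this array, and Hox regions are large: 9 of 62 (14.5%) had at least 10 measured probes, against 4.99% of other autosomal regions. The median Hox region covered 709 bp and the median other region 551 bp, with 4 probes each. Among regions of 2 to 4 probes the median C signal on array 1 was 608 in 40 Hox regions and 2359 in 14157 others. With 5 to 9 probes it was 487.7 in 13 Hox regions and 1648 in 3053 others. With 10 or more it was 380.4 in 9 Hox regions and 714.4 in 904 others. Array 2 gave medians of 334.1, 282.7 and 241.7 for the Hox regions of these sizes, against 1465, 1035 and 446.2. The gap was present at every size and was smallest among the largest regions, with log2 differences of -0.91 and -0.88 on the arrays. Size therefore moves with the level, and its part in the Hox difference was compared only through these 3 classes.

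Probes within a Hox region also differed more from each other. In the 45 Hox regions with at least 4 measured probes, the median SD of log2 C signal among the probes of a region was 0.854 on array 1 and 1.004 on array 2. In 12154 other autosomal regions with at least 4 measured probes it was 0.63 and 0.67. The comparison was not matched for signal or, beyond this minimum, for number of probes. Hox regions were dimmer and more often large. The levels themselves were steady between arrays: log2 C signal of the 62 regions correlated between the arrays (Pearson's r = 0.987, Spearman's rho = 0.968; r = 0.988 over the other autosomal regions). This is a description across regions, which share the same 2 hybridisations and the same probes.

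Along the Hoxa window a long dim stretch followed a bright region. Hoxa region 1, at 52033565 to 52033875 of chromosome 6, was the brightest of the cluster, with a C signal of 23950 on array 1 and 18260 on array 2 and an SL signal of 22120 and 17900. All 12 other tested regions, from 52088122 to 52246404, lay below the other autosomal median, a stretch of 158.3 kb. Array 1 gave them C signals between 117.7 and 1241, and array 2 between 49.58 and 844.5. The region with most probes, Hoxa region 9 (52157200 to 52159581, 13 of 16 probes kept), had 1146 and 634.1. The dimmest was region 6, at 52116952 to 52117841, with 117.7 and 49.58 in C.

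The Hoxb window was the most mixed, with bright regions on either side of a dim stretch. Region 7 (95967601 to 95968108 of chromosome 11) was the brightest tested Hox region on array 1, with a C signal of 26050 there and 16590 on array 2, and an SL signal of 24280 and 18590. From 96010006 to 96169597, over 159.6 kb, 10 consecutive tested regions lay below the median of the other autosomes, with C signals of 139.9 to 1377 and of 74.89 to 985. Of the 10 tested regions outside this stretch, 6 lay above that median. The dimmest region of the cluster, region 18 (96160884 to 96161598), had 139.9 and 74.89 in C and 135.3 and 69.63 in SL. The largest Hox region of all, Hoxb region 4 (95820889 to 95823657, 24 probes over 2769 bp), lay outside the stretch and was dim as well, at 265.3 and 146.6 in C and 273.5 and 166.7 in SL.

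In the Hoxc window 8 consecutive regions from 102452572 to 102844054 of chromosome 15, spread over 391.5 kb, lay below the median. Their C signals were 113.8 to 1108 (array 1) and 67.29 to 772.3 (array 2). The lowest values belonged to region 2 (102574647 to 102575101). The region with most probes, region 8 (102841884 to 102844054, 16 probes), closed this stretch with 1061 and 772.3 in C. The brightest, region 9 (102846563 to 102847189), came next, with 6456 and 5090 in C and 6850 and 3963 in SL. Of the 6 tested regions past the stretch, 2 lay above the median.

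The Hoxd window was dim almost throughout. Hoxd region 1 (74289689 to 74290368 of chromosome 2) had a C signal of 3044 and 2203 and was the only tested region above the median. The other 14 regions, from 74379045 to 74564297 (185.3 kb), had C signals of 102.3 to 968.9 on array 1 and of 41.04 to 645.2 on array 2. Region 9, the largest (74498102 to 74500841, 19 probes over 2740 bp), had 380.4 and 241.7 in C and 341 and 224.2 in SL. Region 5 (74459719 to 74462094, 6 of 8 probes kept) was the dimmest, with 102.3 and 41.04 in C and 108.6 and 48.65 in SL.

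**Figure D2:**
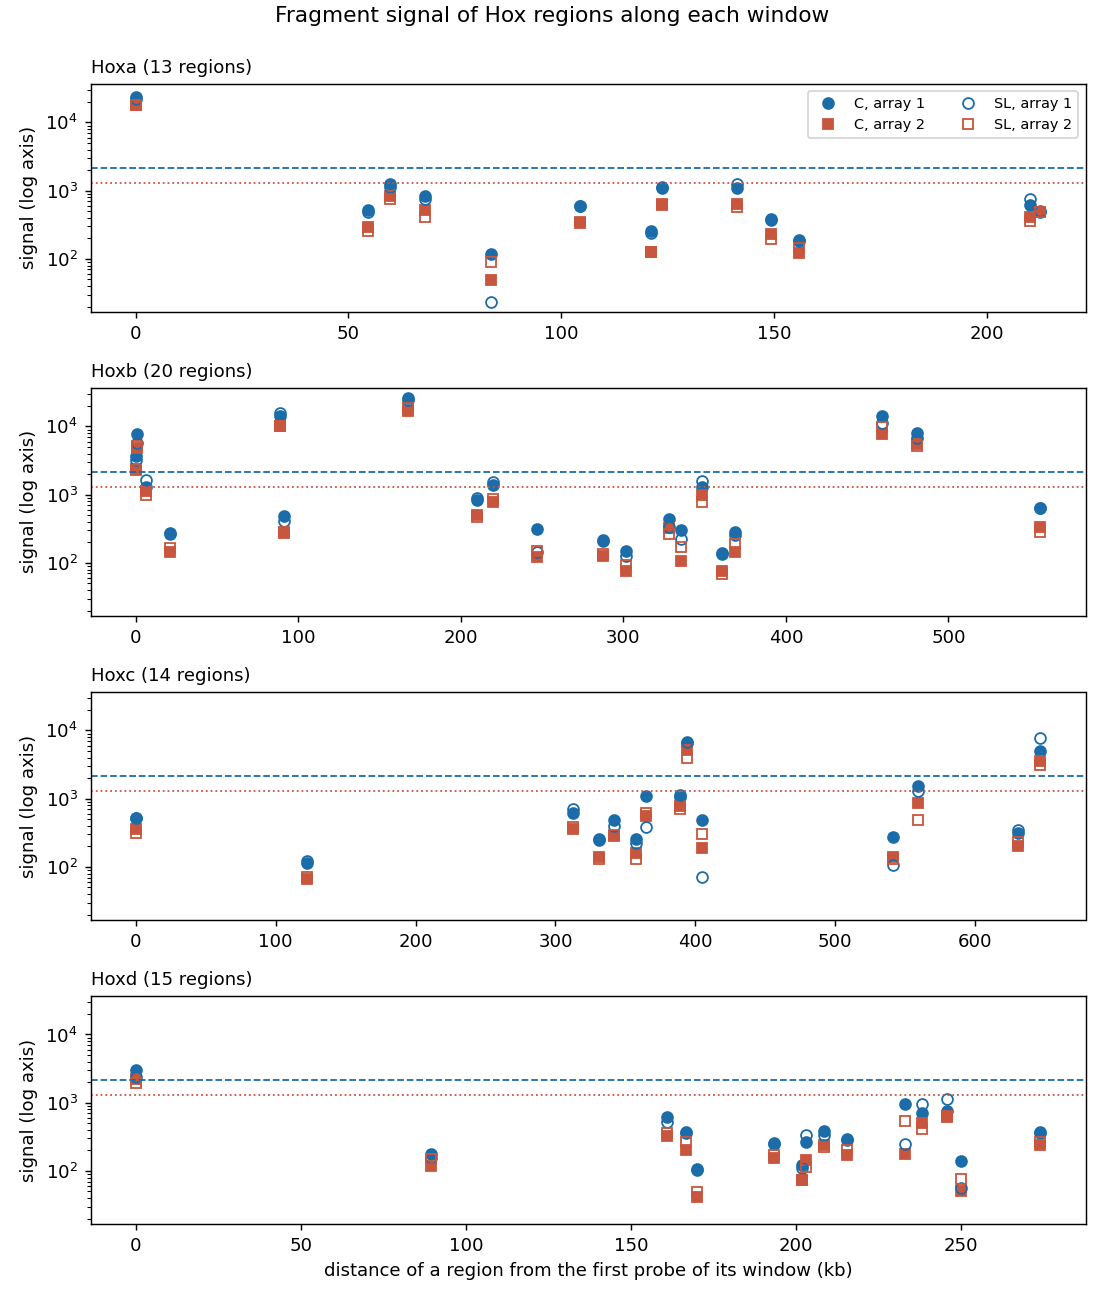
Signal of each tested Hox region (y axis, log scale) by its distance from the first probe of the window (x axis, kb), for C (filled) and SL (open) on array 1 (circles) and array 2 (squares). Dashed and dotted lines are the median C signal of other autosomal regions on array 1 (2141) and array 2 (1309); of 62 regions, 10 lie above.

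The windows end at round positions, and the regions at their edges were not alike. In Hoxa the nearest tested region below the window had a C signal of 11110 on array 1 and the first inside it 23950, while the last inside had 485.2 and the next outside 5249. In Hoxb the C signals on array 1 were 16860 outside and 3666 inside at the lower edge, and 627.9 inside and 245.5 outside at the upper one. At the lower edge, the outside region ended at 95799976 and Hoxb region 1 began at 95800053. Only the edge of the window kept them apart. In Hoxc they were 537.9 outside and 522 inside at the lower edge, and 5050 inside and 5500 outside at the upper one. In Hoxd they were 102.2 outside and 3044 inside, then 365.6 inside and 113.5 outside. The nearest tested regions outside the windows were thus also dim below Hoxc, above Hoxb and on either side of Hoxd. They were not all close to an edge: the one above Hoxb began at 96604385, and the one below Hoxd ended at 73936832.

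Litter size did not separate the Hox regions by a change that the test could call. Against C, SL gave 0 of 62 Hox regions with a limma Benjamini-Hochberg adjusted p under 0.05, and 0 of all 18545 tested regions (0.0%). At an unadjusted p under 0.05 the counts were 0 Hox regions and 378 regions in all (2.04%). Of 368 Hox probes 0 were called by limma, against 357 of 86472 probes on the whole array (0.413%). With limma's variance tied to signal, 1 Hox region was called, Hoxc region 11, with an adjusted p of 0.0413 among 195 regions called on the whole array, together with 2 Hox probes. That region's ratio had opposite signs on the arrays, as given below. The median standard error of a Hox region's mean log2 ratio was 0.33 (n = 2 arrays). Hoxc region 11 had the mean farthest from 0, -1.06, with a standard error of 0.53. Without the variance tied to signal, its unadjusted limma p was 0.0603, so even this mean was not called. Missed differences need therefore not be small, and the size of change that the test would call was not tested.

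In 31 of 62 Hox regions (50%), log2(SL/C) was within 1.2-fold on array 1 and on array 2, against 26.65% of other autosomal regions. No Hox region passed 1.5-fold with 1 sign on both arrays, where 0.221% of all tested regions were. At 1.2-fold there was 1 such Hox region (1.61%, against 2.89% of all; lower in SL, as were 2.32% of all), Hoxc region 15 at 103011598 to 103012403, which is named because it was the sole one and was chosen after its values were seen. Its C signal was 1553 and 852.9 on the arrays and its SL signal 1304 and 494.1, so log2(SL/C) was -0.29 and -0.75. Its mean of -0.52 had a limma adjusted p of 0.999. Each array taken singly had more: 8 Hox regions were past 1.5-fold on array 1 (12.9%, against 27.3% of all) and 6 on array 2 (9.68%, against 4.02%).

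As a group the Hox regions did not move apart from the other autosomes in a repeatable direction. The median log2(SL/C) over Hox regions minus that over other autosomal regions was -0.075 for array 1 and 0.020 for array 2, with mean -0.027 ± 0.067 (SD, n = 2). The exact two-sided sign-flip test over arrays gave p = 1.0, where 2 arrays allow no p below 0.5. For Hoxb the difference was -0.14 and 0.11, and for Hoxd -0.049 and 0.20, with opposite signs on the arrays. For Hoxa it was -0.071 and -0.0025 and for Hoxc 0.039 and -0.029. In every cluster the SD between arrays exceeded the mean. In the long dim stretches the median log2(SL/C) was -0.081 and -0.041 in Hoxa, -0.16 and 0.17 in Hoxb, 0.0059 and 0.010 in Hoxc, and -0.050 and 0.20 in Hoxd.

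The direction of change differed between arrays for most Hox regions. The ratio had the same sign on both arrays in 24 of 62 regions (38.71%, against 37.96% of other autosomal regions): 16 lower in SL on both (25.81%, against 20.67%) and 8 higher (12.9%, against 17.29%). It was lower on array 1 and higher on array 2 in 26 regions (41.9%, against 31.7% of all tested regions), among them 9 of 15 Hoxd regions, and the opposite in 12 (19.35%, against 30.19% of other autosomal regions). Log2(SL/C) on array 1 and array 2 correlated with r = -0.63 and rho = -0.38 over the 62 regions, and with r = -0.43 and rho = -0.36 over other autosomal regions, again as a description across regions of the same 2 hybridisations. The dyes are stated in the labels and were exchanged, and the authors' value table holds the same turned ratio, so the direction SL over C was kept on both arrays.

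Among regions with 1 sign on both arrays, the extremes of Hoxa, Hoxb and Hoxd lay within 0.43 of 0 on the log2 scale on either array, and the lowest of Hoxc did not. In Hoxa the highest was region 16 (52246135 to 52246404), with log2(SL/C) of 0.038 and 0.059, and the lowest was region 4 (52101495 to 52102457), with -0.19 and -0.27. In Hoxb region 9 (96019744 to 96019959) had 0.12 and 0.19, and region 14 (96127993 to 96128331) had -0.43 and -0.25. In Hoxc region 16 (103083334 to 103083513) had 0.12 and 0.26. Hoxd region 5 had 0.048 and 0.29, and Hoxd region 1 had -0.39 and -0.15. The widest was Hoxc region 12 (102993731 to 102994308): its C signal was 275.9 on array 1 and 137.9 on array 2, its SL signal 105.6 and 132.8, and log2(SL/C) -1.43 and -0.013. Its mean of -0.72 rested on array 1 alone, where all 3 probes were lower in SL, at -1.55, -1.49 and -1.24. On array 2 those probes had 0.041, -0.17 and 0.089.

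The largest regions, which average most probes, had means near 0 that hid runs of probes away from it. Hoxb region 4, with 24 probes, had log2(SL/C) values of 0.0050 and 0.23. Hoxd region 9, with 19, had -0.20 and -0.068, Hoxc region 8, with 16, had 0.055 and -0.081, and Hoxa region 9, with 13, had -0.10 and 0.017. In Hoxa region 9 the first 5 probes lay between -0.93 and -0.41 on array 1 and the last 5 between 0.26 and 0.78. On array 2 the same probes did not follow this, at -0.058 to 0.85 and -0.30 to 0.16. The first 5 are 49 to 60 bases long and the last 5 are 45 to 50. Other autosomal probes of 60 bases had a lower median on array 1 (-0.32) than those of 45 (0.11). The part of length in this run was not tested. When regions were formed after the dim filter, the mean log2(SL/C) for Hoxa region 9 was -0.26 in place of -0.044. Hoxd region 9 opened with 4 probes at -0.76 to -0.57 on array 1, which had -0.30 to 0.022 on array 2. The brightest regions had means close to 0 in Hoxa (-0.15 and 0.012) and Hoxb (-0.14 and 0.20), while Hoxc region 9 had 0.046 and -0.32 and Hoxd region 1 had -0.39 and -0.15. The dimmest of Hoxb (region 18, -0.088 and -0.064) and Hoxc (region 2, 0.070 and 0.11) were close to 0 as well. The dimmest of Hoxd, region 5, had 0.048 and 0.29, and that of Hoxa, region 6, had -2.36 and 0.92, as described below.

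**Figure D3:**
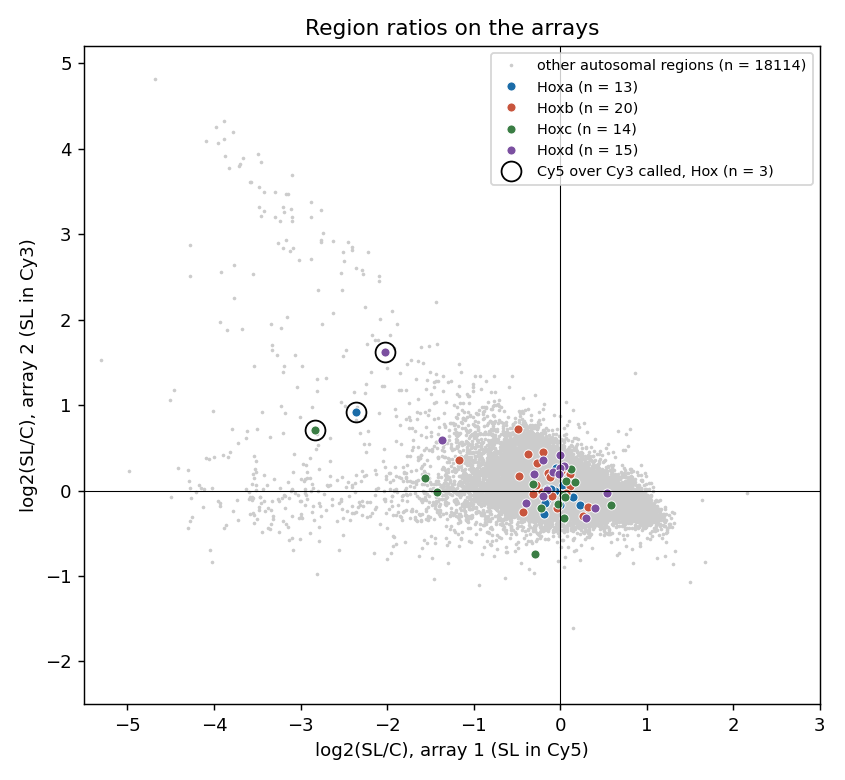
Log2(SL/C) of each tested region on array 1 (x axis, SL in Cy5) and array 2 (y axis, SL in Cy3), with Hox regions coloured by cluster, other autosomal regions in grey and the 3 Hox regions called in the dye contrast ringed. Most Hox regions lie near the origin, and the ringed ones lie in the upper left, lower in SL on array 1 and higher on array 2.

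In the dye contrast, Cy5 over Cy3 fitted with array 2 left as scanned, limma called 3 of 62 Hox regions (4.84%) at an adjusted p under 0.05, against 2.59% of all tested regions. All 3 had more Cy3 than Cy5 signal on both arrays, as had 2.56% of all tested regions. A region whose signal depends on the dye appears here, and after a dye exchange it has opposite signs of SL over C on the arrays. A difference between SL and C on a single array enters both contrasts. In the fit as run, limma gave every tested Hox region the same standard error of mean log2(Cy5/Cy3), 0.31. A region's p in this contrast therefore does not reflect how far its own arrays differed. Past 1.5-fold in opposite directions were 4 Hox regions (6.45%, against 2.29% of all): the 3 called ones and Hoxd region 14. On single probes, 14 of 368 Hox probes were called in this contrast (3.8%, against 2.56% of all). All 14 had more Cy3, as had 2.42% of all probes, and they lay in 6 regions.

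Hoxd region 11 (74522665 to 74522913 of chromosome 2) had a C signal of 968.9 and an SL signal of 245.2 on array 1, and 179.4 and 536.5 on array 2. The dye with the higher signal was Cy3 both times: C on array 1 and SL on array 2. Log2(SL/C) was -2.02 and 1.62, and mean log2(Cy5/Cy3) had a limma adjusted p of 3.13e-07. Its 3 probes moved together, at -1.92, -2.00 and -2.15 on array 1 and at 1.33, 1.55 and 1.98 on array 2.

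Hoxc region 11 (102857019 to 102857919 of chromosome 15, 2 of 3 probes kept) had a C signal of 486.4 and an SL signal of 70.05 on array 1, and 191.6 and 305.5 on array 2. Log2(SL/C) was -2.84 and 0.71 (adjusted p of the dye contrast 7.37e-07 by limma). Cy3 was thus above Cy5 by very unequal amounts on the arrays, which this p does not take into account. Its mean log2(SL/C) of -1.06 was the lowest of all Hox regions and was set by array 1 alone.

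Hoxa region 6, the dimmest of Hoxa, had 117.7 in C and 23.52 in SL on array 1, and 49.58 and 91.43 on array 2. On array 1 none of its 4 probes was well above background in SL, so it passed the dim filter there through C alone and its log2(SL/C) of -2.36 rests on a channel without a measured level. On array 2 all 4 were, and the ratio was 0.92. With all 4 channels required to be above background, this region could not be tested. All 9 kept probes of the 3 called regions are 60 bases long, the greatest length on the array. Among all kept Hox probes, 77 of 368 Hox probes (20.92%) have this length, against 22.99% of all kept probes. Of the 14 Hox probes called in the dye contrast, 10 have this length (71.43%), against 63.22% of all probes called with more Cy3. Of Hox probes with 60 bases 12.99% were called, and of all such probes 6.67%. After centring the ratios within each probe length, 1 of the 3 regions, Hoxd region 11, was still called (limma adjusted p of 0.0284), and 96 regions in all, down from 481. Under this centring mean log2(Cy5/Cy3) was still -1.63 in Hoxc region 11 (adjusted p of 0.444 by limma) and -1.50 in Hoxa region 6 (0.252), so the calls were lost with little change in the values.

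Further regions whose arrays lay far apart did not pass the dye test as run, and 2 of them did under alternatives. Hoxd region 14 (74539729 to 74540825) had ratios of -1.37 and 0.60 on the log2 scale (limma adjusted p of the dye contrast 0.0517). It was called in 6 of 14 alternatives, with adjusted p between 0.00772 and 0.371 over them. Hoxc region 7 (102817456 to 102818538, 3 of 4 probes kept) had -1.56 and 0.15 and was called in 1 of 14 alternatives, limma's trend on signal (adjusted p 0.0266; the range over alternatives reached 0.469). Hoxb region 10 (96047096 to 96047494) had -1.17 and 0.36. Hoxb region 15 (96135436 to 96136842) was split within itself, with means of -0.49 and 0.72. At its upper end 3 probes, from 96136515 on, had -1.68, -1.37 and -2.66 on array 1 and 1.85, 1.64 and 2.52 on array 2, and each was called in the dye contrast. Its other 5 probes lay nearer 0, so the region mean hid a local pattern. Hoxa region 15 (52243748 to 52245653) was the least far apart of these, with 0.23 and -0.16.

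**Figure D4:**
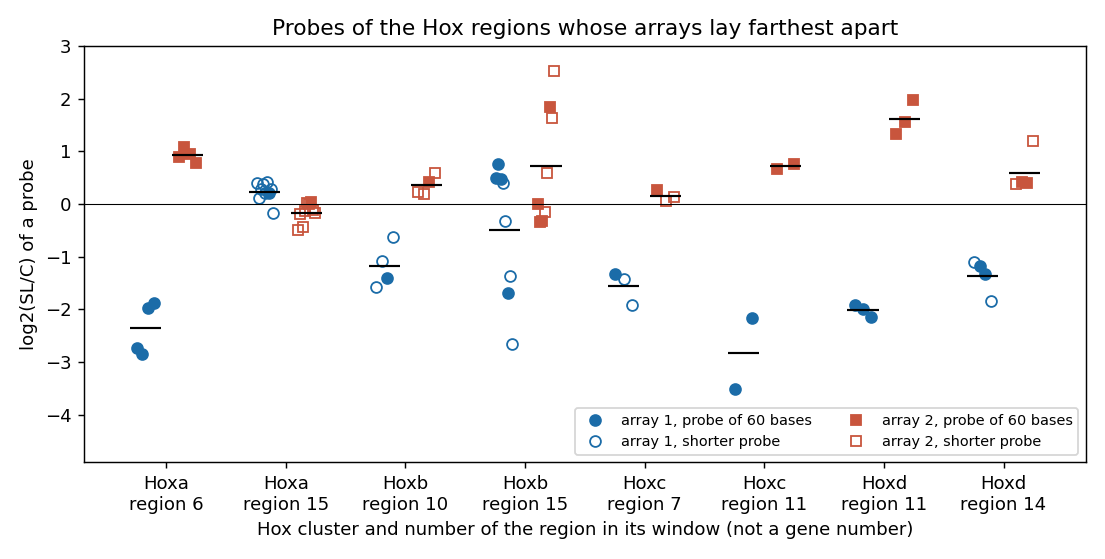
Log2(SL/C) of each kept probe (y axis) in the 8 regions, 2 per cluster, whose arrays lay farthest apart (x axis), on array 1 (blue circles) and array 2 (red squares); filled symbols are probes of 60 bases, open ones shorter, and black bars are region means. In Hoxa region 6, Hoxc region 11 and Hoxd region 11 all probes are 60 bases long and lie below 0 on array 1 and above 0 on array 2.

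Ratios also moved with the signal and with probe length over the whole array, and Hox regions lay mostly where signal is low. On each array, regions were split into 5 classes by the mean of their log2 C and log2 SL signals. The class limits cut the other autosomal regions into equal parts. In the dimmest class, the median log2(SL/C) on array 1 was -0.14 in 22 Hox regions and -0.16 in others, and on array 2 it was 0.23 in 21 Hox regions and 0.22 in others. In the next class, the medians were -0.032 and -0.048 on array 1, and -0.0080 and 0.086 on array 2. In the dimmest class the Hox regions thus had median ratios close to those of other regions. In class 3 the Hox and other medians were -0.025 and -0.042 on array 1, and -0.15 and -0.048 on array 2. In class 4 they were -0.13 and 0.081 on array 1, and -0.10 and -0.064 on array 2. In the brightest class, the 4 Hox regions had medians of -0.15 on array 1 and 0.13 on array 2, where other regions had 0.36 and -0.11. By probe length, Hox probes of 45 bases had medians of -0.020 and 0.15, those of 46 to 59 bases -0.17 and -0.027, and those of 60 bases -0.16 and -0.064. Other autosomal probes of 45 bases had 0.11 and 0.13, those of 46 to 59 bases -0.0098 and -0.073, and those of 60 bases -0.32 and -0.037.

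The remaining 14 Hox regions were not tested. Of these 12 had a single probe, Hoxa region 5 kept 1 of its 4 probes, and Hoxa region 12 kept none of 3. In 5 of the 14 no probe was well above background in any channel on at least 1 array: Hoxa region 12, Hoxc region 10, and Hoxd regions 15, 16 and 17, the last 3 being neighbours between 74548835 and 74550692. Over their probes, the C signal of the untested regions lay between 9.68 and 1730 (array 1) and between 4.04 and 1316 (array 2). They thus lay below the other autosomal median on array 1. The highest was Hoxc region 13 (102995115 to 102995169), a single probe.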

How the data were processed

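Mouse hypothalamic DNA was compared on 2 two-colour Agilent arrays, each SL against C. Per the file headers, the authors' processed signals are intensity values that Agilent Feature Extraction had background-subtracted and dye-normalised (version 10.5.1.1 in the headers, 9.1.3.1 in the submitters' processing notes), with a multiplicative detrend on array 1 only. The deposited log10 ratios are Cy5 over Cy3, and the authors' value table equals them, turned to SL over C, to within 0.005. Its column medians were 0 and -0.00128.

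Here the log2 ratio of processed signals, SL over C, was centred on each array's median, with no loess. Of 393 Hox probes, 1 had an outlier flag and was left out, and 368 were kept because on both arrays Cy3, Cy5 or both were well above background. Regions were formed over all unflagged probes, and a region's value is the mean over its kept probes, at least 2. Limma 3.58.1 in R 4.3.3 (intercept, eBayes, two-sided, Benjamini-Hochberg over all regions or probes, threshold 0.05) was run on the whole array. It was checked by adding known changes to the arrays' own values under random signs. That check required only the right direction for the largest added change, so it does not show what size of change is detected. Positions are those of the array design (mm8). Regions named were, per cluster, the one with most probes, the brightest, the dimmest, the highest and lowest ratio with 1 sign, the 2 whose arrays lay farthest apart, and any called. The members, lists and tests were chosen with earlier results of these data known. Alternatives changed the ratio source, background correction (normexp, offset 50, on median signals in place of the mean signals first planned), loess, dim filter, gap, probe minimum, averaging, moderation and centring.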

Additional observations from a re-analysis of the deposited data

How the results depend on the processing

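No paired analysis was possible because each array is itself 1 comparison of SL with C. The count of Hox regions called in SL over C stayed at 0 in all alternatives except limma's trend on signal, which gave 1 region (Hoxc region 11, 195 over all regions) and 2 Hox probes (724 over all probes, against 357); the second is the probe of Hoxc region 13. The count over all regions was 88 with normexp, 126 with all 4 channels above background, 105 with probe medians, 36 with robust moderation, 1 when regions were formed after the dim filter (a setting added after seeing the data, as was centring within 5 classes of signal), and 0 in the other alternatives. Over all probes, loess gave 32 calls, centring by signal 1, and no dim filter or centring by probe length 0. In Cy5 over Cy3 the trend gave 5 Hox regions and centring by probe length 1, and the other alternatives gave 3 or 4, where Hoxd region 14 gained the call in 6 alternatives and Hoxc region 7 with the trend. No Hox region past 1.5-fold the same way became 1 without the dim filter (Hoxa region 5, mostly dim probes) and 1 at 1.2-fold. With a single array, where no test remains, 6 to 8 Hox regions passed 1.5-fold. The difference in log2 C signal, -2.02, was -1.90 without the dim filter, -1.70 within probe length, -1.93 with normexp and -2.07 in regions of 2 or more probes, and -2.04 to -1.99 on single arrays. The group difference in log2(SL/C) stayed between -0.031 and 0.014 with both arrays, positive only with normexp, and was -0.075 to 0.020 on single arrays. Of 347 values of the 25 named regions under alternatives, 5 had the other sign, called in neither setting. Signal over background limits the dimmest regions, and 2 arrays limit every ratio.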
